A study of Mus musculus with 15 samples.

Results

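Ependymal cells, the multiciliated cells that line the ventricles, were followed as single nuclei in dissections of the mouse dorsal hippocampal formation (dHF). A nucleus was taken as ependymal when its barcode held at least 500 genes, at least 3 UMIs (unique molecular identifiers, each standing for a captured RNA molecule) of Dnah12, at least 1 UMI of Tmem212 and no more than 1 UMI of Gad1 and Gad2 together. Of 133236 barcodes with at least 500 genes in 15 mice, 166 met these criteria, or 12.46 in every 10000. These nuclei were selected on their own counts of Dnah12, Tmem212, Gad1 and Gad2, so the levels of those genes, and of the genes that go with them, are given as a description and carry no test.

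All mice were female, wild-type C57BL6/J. The 6 nulliparous (NP) mice were virgins, age-matched to the others. The 4 control RE (reproductive experience) mice, labelled ControlPP, were bred, carried and bore a litter, lactated and raised the pups to weaning. The 5 stress RE mice, labelled StressPP, had the same history with limited nesting and daily separation from the pups during later lactation, and tissue of both RE groups was taken weeks after weaning. Each library was made from the nuclei of 1 mouse, from bilateral micropunches of the dHF (labelled dHpc), and mice are named here by group and by the number in their label. The study set ependymal, choroid plexus and vascular leptomeningeal clusters aside as contaminants, so no comparison was designed around these nuclei. How much ventricular wall each set of punches caught was not recorded in the sources used here, and a difference in the number of ependymal cells cannot be told apart from a difference in the tissue caught.

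Each ependymal cell carries a tuft of motile cilia on its ventricular face, and their beat moves the cerebrospinal fluid. A motile cilium is built on an axoneme, a ring of microtubule doublets around a central pair. Dynein arms walk between doublets and bend the cilium, radial spokes and the central pair time them, and intraflagellar transport carries the parts to the tip. The programme is switched on by geminin-family coactivators, by the forkhead factor FOXJ1 and by RFX factors. RFX factors bind the X-box, a palindromic DNA element found near the start of many ciliary genes.

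The promoters of the genes that set these nuclei apart were therefore read for X-box letters. The first search was for a single strict form of the X-box, called the full X-box here, 14 letters long and identical on both strands. Some of its positions may hold any letter, but its spacing is fixed and no mismatch was allowed at the others. X-boxes of other spacing or letters were not counted, so a count of 0 does not show that a promoter lacks an X-box. The search covered the 250 bases before each start site of the RefSeq promoter table (build GRCm38.p6). The table holds 27025 genes, of which 120 (0.444%) had a match. Of the 30 genes with the largest ratio of level between ependymal and all other nuclei, 20 are in the table and 0 had a match. There were likewise 0 matches among 19 axonemal dynein genes, 26 radial spoke, central pair and other axoneme genes and 13 multiciliation regulators, while 2 of 15 dynein assembly and docking genes (Cfap298 and Ccdc151) and 1 of 18 intraflagellar transport genes (Ttc26) had one. Outside the ciliary lists, 1 of 23 genes that mark brain regions (Six3, 4.348%) had one as well. After these counts were seen, a shorter core of 6 letters, GTTGCC or GGCAAC on the other strand, was searched as well. It occurs inside some full X-boxes, so the searches overlap, as in Cfap298 and Ttc26.

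The short core was in 3195 promoters, or 11.82% of the table. It was in 7 of the 20 leading genes (35%), 5 of 15 assembly and docking genes (33.33%), 8 of 26 radial spoke and central pair genes (30.77%), 5 of 18 intraflagellar transport genes (27.78%) and 5 of 19 dyneins (26.32%). The dyneins were Dnah7a, Dnah7b, Dnah7c, Dnah10 and Dnaic2. Dnah7a, Dnah7b and Dnah7c are near-identical copies, so their matches may not be separate and the dynein share may be inflated. Among the regulators it was in 5 of 13 (38.46%), namely Rfx2, Mcidas, Ccno, Deup1 and Ccdc78. Lists that do not belong to the cilium had it in 1 of 17 astroglial genes (5.882%), 1 of 18 hormone and dopamine receptor genes (5.556%) and 0 of 6 oligodendrocyte markers, although 3 of 8 choroid plexus markers (37.5%), 2 of 5 excitatory neuron markers (40%), 2 of 7 neuroblast markers (28.57%) and 3 of 14 interferon and antigen presentation genes (21.43%) held it too. These are counts of letters in a fixed window and do not show that a factor binds there.

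Stretches around a match are shown for the 3 ciliary genes with a full X-box and for 3 genes with the short core, 2 leading genes and an RFX gene itself, so that the element can be seen in its setting. They were chosen after the matches were seen. Capitals mark the match, every stretch reads 5′ to 3′ on the strand of the gene, and 30 bases rather than 100 are given where the stretch meets an annotated exon.
Ccdc151 (chr9:22002635-22002734, minus strand): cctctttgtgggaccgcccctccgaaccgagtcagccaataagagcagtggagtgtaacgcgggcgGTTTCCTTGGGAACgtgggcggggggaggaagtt
Ttc26 (chr6:38381483-38381512, plus strand): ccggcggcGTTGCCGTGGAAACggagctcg
Cfap298 (chr16:90935016-90935045, minus strand): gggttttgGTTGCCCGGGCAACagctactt
Ccdc180 (chr4:45890203-45890302, plus strand): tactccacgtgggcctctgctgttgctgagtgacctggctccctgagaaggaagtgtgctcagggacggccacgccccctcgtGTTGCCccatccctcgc
Sntn (chr14:13670763-13670862, plus strand): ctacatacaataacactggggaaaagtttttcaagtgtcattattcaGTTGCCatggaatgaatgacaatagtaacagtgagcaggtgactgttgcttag
Rfx2 (chr17:56831072-56831171, minus strand): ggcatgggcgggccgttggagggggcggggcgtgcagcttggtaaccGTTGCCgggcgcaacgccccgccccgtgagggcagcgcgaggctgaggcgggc

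In the GENCODE vM21 annotation of the same build, the matches of Ccdc151, Ccdc180, Sntn and Rfx2 lie between genes. That of Ttc26 lies in an exon of Ttc26, and that of Cfap298 in exons of both Cfap298 and the overlapping 4930534H18Rik. Counted from the start site of the RefSeq promoter table, which can differ from that of GENCODE, the match starts 34 bases upstream for Ccdc151, 33 for Ttc26, 188 for Cfap298, 17 for Ccdc180, 66 for Sntn and 116 for Rfx2.

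The libraries held 40602582 to 96211264 UMIs over 5789 to 12738 barcodes, with medians per barcode of 4020 to 8877 UMIs. Ependymal nuclei had a median of 3510 UMIs (874 to 144400) and 2061 genes (655 to 11130), against a median of 5738 UMIs over all barcodes with at least 500 genes. None of the 166 had over 5% mitochondrial UMIs. No member barcode recurred among the members of another library, and 4 were present somewhere in another library.

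The label was checked against markers that the selection had not used. Foxj1, which encodes the forkhead factor of motile cilia, had a UMI in 47 of the 166 nuclei (28.31%). Oligodendrocytes, which should lack it, had a Foxj1 UMI in 1.8% of nuclei at a median of 3333 UMIs, against a median of 3510.5 in the ependymal nuclei. At an equal depth of 1000 UMIs drawn from each nucleus, Foxj1 was seen in 12.2% of ependymal nuclei and 0.4667% of oligodendrocytes (2 ependymal nuclei were too shallow and were left out). The sum of 76 axoneme, dynein and docking genes, with the genes of the rule left out, had a median of 337.3 per 10000 UMIs in ependymal nuclei and 9.736 in oligodendrocytes. Of the 10 ependymal markers other than Dnah12 and Tmem212, 8 were higher in ependymal nuclei than in the other nuclei in 9 of 9 mice, and 9 had a ratio over 10. Over all 28818 genes with a UMI in any nucleus, the same counts were 1117 and 1678. Some of the nuclei also held markers of a second cell type.

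In 31 of the 166 nuclei (18.67%), the markers of another cell type reached at least 10 UMIs and at least 10 per 10000 UMIs, and these are called mixed here. The list over the limit was that of excitatory neurons in 16 nuclei, oligodendrocytes in 11, choroid plexus in 4, GABAergic neurons in 1 and neuroblasts in 1, a nucleus being counted under each list it passed. Mixed nuclei were deeper, with a median of 10590 UMIs against 3221 in the other 135, and so held 48.55% of all ependymal UMIs. A minimum of 10 UMIs is reached more easily in a deep nucleus, so the definition itself favours depth. Shallow nuclei over 10 per 10000 were not called mixed. The other 135 reached up to 22.47 per 10000 of excitatory neuron and 22.88 of oligodendrocyte markers, so they are not free of such markers. Their axoneme sum had a median of 120.5 per 10000 UMIs, against 359.6 in the others. Scrublet, a caller of doublets (droplets that hold more than 1 nucleus), marked 10 of the 31 and 4 of the 135. The deepest nucleus, with 144400 UMIs, made up 95.35% of the ependymal UMIs of NP mouse 63. Values without the mixed nuclei are given beside the results that move most without them, and what part they had in a result was not tested.

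**Figure D1:**
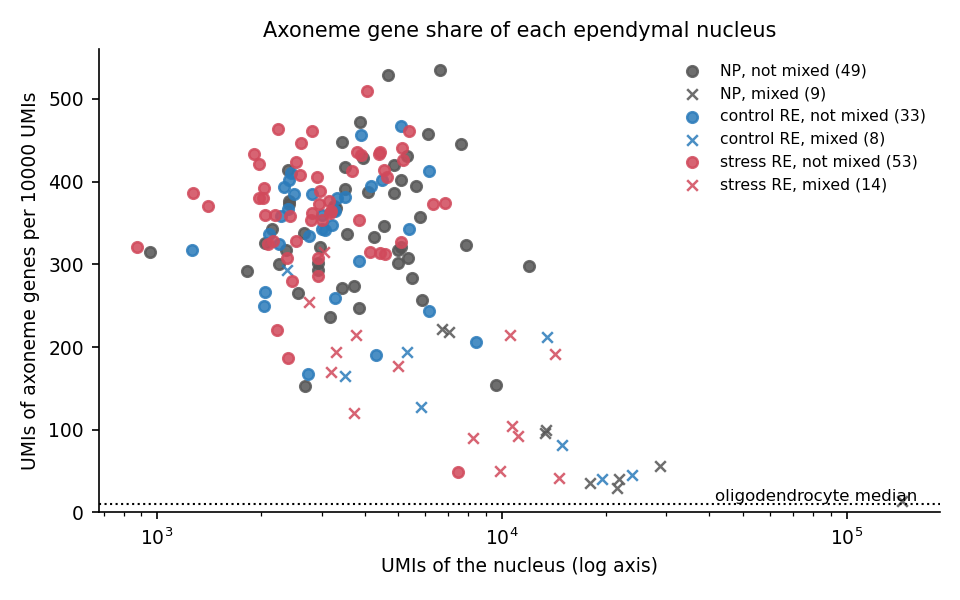
Each point is 1 of the 166 ependymal nuclei, with its UMIs on a log scale on the x axis and the sum of axoneme genes, rule genes left out, per 10000 UMIs on the y axis. The 31 mixed nuclei lie mostly below and to the right, with medians of 10590 UMIs and 120.5 per 10000, against 3221 UMIs and 359.6 per 10000 in the other 135. Their definition, with a minimum of UMIs, favours deep nuclei.

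Nuclei just inside and just outside each threshold were compared by description. Among nuclei that met the other criteria, the 27 with exactly 3 Dnah12 UMIs had a median axoneme sum of 315.1 per 10000, and the 15 with 2 UMIs had 222.6. The 16 with a single Tmem212 UMI had 288.7, whereas the 25 with no Tmem212 UMI had 11.8 at a median of 12820 UMIs. The 25 with 1 UMI of Gad1 or Gad2 had 320.6, and the 3 with more had 113.5. The Tmem212 criterion thus set the sharpest edge, while the Dnah12 criterion left out nuclei whose axoneme sum was still far over that of oligodendrocytes.

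Of the 30 genes with the largest ratio to all other nuclei, 4 belong to a list used here, Dnah12 and Tmem212 of the rule with Ccdc153 and Spag17, and others include genes without a known role. Levels here are counts in every 1000000 (CPM) of the UMIs summed over the ependymal nuclei of a mouse, as mean ± SD over the 9 mice with at least 10 such nuclei (NP mice 27, 35, 37 and 73, control RE mice 72 and 87, and stress RE mice 75, 77 and 90). CPM is not scaled to gene length, so levels are compared between nuclei and not between genes. Dnah12, an inner-arm dynein heavy chain at chr14:26693274-26891703 on the plus strand, stood at 1742 ± 385.2 CPM, against 1.024 in the other nuclei. In NP mice its levels were 2487, 1521, 1448 and 1326 CPM, in control RE mice 1448 and 1791, and in stress RE mice 1669, 2221 and 1768, so the groups overlapped. Tmem212, a membrane protein used as an ependymal marker (chr3:27866066-27896368, minus strand), stood at 1105 ± 363 CPM. It ranged from 626.7 CPM in control RE mouse 72 to 1734 in NP mouse 27. Both were used to choose the nuclei.

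Genes that played no part in the choice had ratios of the same order. Ccdc180, a coiled-coil protein, stood at 377.1 ± 90.16 CPM against 0.105, a ratio of 3592. Its levels were 456.4, 469.3, 266.8 and 253.7 CPM in NP mice, 348.2 and 333.9 in control RE mice and 380.9, 366.7 and 518.5 in stress RE mice. The range of the NP mice enclosed all others but that of stress RE mouse 90. Sntn, which encodes sentan, a protein of the ciliary tip, stood at 116.6 ± 52.25 CPM with a ratio of 2625. Unc5cl, a death-domain protein related to netrin receptors (chr17:48454901-48539714, plus strand), stood at 650.1 ± 343.3 CPM with a ratio of 2308. Wdr49, a WD-repeat protein, stood at 1079 ± 184 CPM with a ratio of 1422 and had a UMI in 96.39% of ependymal nuclei and 0.1333% of oligodendrocytes. Uox, which encodes urate oxidase, was also among the 30 leading genes, at 121.4 ± 38.08 CPM and a ratio of 1702. Further leading genes were Fam216b, Dthd1, Ccdc153, Ttc29, Frmpd2, Ttll6 (a tubulin polyglutamylase), Lrrc36, Lrrc43, Crocc2 (related to the ciliary rootlet) and the central pair gene Spag17, with ratios from 538.6 for Crocc2 to 3209 for Fam216b. Several of them had almost no signal in choroid plexus nuclei, the nearest other ventricular epithelium, with 0.8352 CPM for Ccdc180 and 0.8067 for Unc5cl.

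Over the 28818 genes with a UMI in any nucleus of the 9 mice, 1117 (3.88%) were higher in ependymal than in the other nuclei in 9 of 9 mice and 6983 (24.2%) were lower, with a median ratio of 0.5848. The ratio was over 2 for 5188 of the 28818 and over 10 for 1678, the background for such counts in the lists. A gene with no UMI in the ependymal nuclei of a mouse counts as lower there if the other nuclei held it. Of the 28818, 10570 had no UMI in the ependymal nuclei of any mouse, those with fewer than 10 such nuclei included. Over the 4143 genes with at least 50 CPM in ependymal nuclei, 989 were higher and 458 lower, but that minimum favours genes high in these nuclei, and the lists below were not filtered in this way. The counts of the lists are descriptions and have no test.

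Axonemal dyneins, the motors of the cilium, formed the first list. The list has 21 genes, of which Dnah12 was used to choose the nuclei. Of the other 20, 18 were higher in 9 of 9 mice, 17 had a ratio over 10, and the median ratio was 44.32. Together these 20 summed to 7507 ± 2029 CPM, against 265.1 in the other nuclei. Their sum was 11820, 7234, 6183 and 5246 CPM in NP mice, 5362 and 7208 in control RE mice and 7211, 8577 and 8721 in stress RE mice. NP mouse 27, the only mouse of the 9 with no mixed nucleus, was the highest, and the groups overlapped. The sum was 9643 ± 1184 CPM without the mixed nuclei, and with Dnah12 it was 9249 ± 2390 CPM over all ependymal nuclei.

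Among outer-arm heavy chains, Dnah11 stood at 1048 ± 381.8 CPM (ratio 348.4), Dnah9 at 1050 ± 332 (ratio 10.14) and Dnah5 at 547 ± 206.3 (ratio 61.93). Dnah11 was at 1552, 1246, 809.8 and 622 CPM in NP mice, 612.8 and 834.7 in control RE mice and 882.3, 1243 and 1626 in stress RE mice, with overlap between all groups. Among inner-arm chains, Dnah6 stood at 775.6 ± 316.5 CPM (ratio 222), Dnah3 at 472.3 ± 196.6 (ratio 190.8) and Dnah10 at 358.4 ± 208.5 (ratio 320.5). Intermediate chains Dnaic1 and Wdr63 stood at 268.1 ± 93.43 and 367.6 ± 121.5 CPM, with ratios of 68.36 and 450.6. Dnah7a, Dnah7b and Dnah7c are near-identical copies, so how reads were split between them is uncertain. Dnah8 and Dnah17 were the exceptions, at 1.968 ± 3.919 and 6.069 ± 8.554 CPM, with ratios of 1.191 (2.45 without the mixed nuclei) and 0.8872.

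The dynein genes did not all separate ependymal from choroid plexus nuclei, which in the mouse carry cilia of their own. The list summed to 2182 CPM in choroid plexus nuclei. Dnah9 was at 306.1 CPM there, Dnah6 at 313.7, Dnah7b at 354.7, Dnah11 at 197.9 and Wdr78 at 507.4, the last close to its 499.2 ± 106.1 CPM in ependymal nuclei. By contrast, Dnah5 was at 1.623 CPM, Dnah10 at 1.237, Dnah1 at 3.415 and Dnah3 at 10.92.

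Dynein arms are preassembled in the cytoplasm and then docked on the doublets. Of the 21 assembly and docking genes, 12 were higher in 9 of 9 mice, with a median ratio of 20.79 and a sum of 2232 ± 479.9 CPM (2788 ± 393.5 without the mixed nuclei). Armc4, of the outer-arm docking complex, stood at 434.2 ± 150 CPM with a ratio of 295. It was at 616.1, 485.5, 228.6 and 245.5 CPM in NP mice, 250.7 and 561.5 in control RE mice and 495.1, 529.7 and 495 in stress RE mice. The low and high values were spread over NP and control RE mice alike. Ccdc39, a ruler that spaces the inner arms, stood at 291.8 ± 101 CPM with a ratio of 8.203, and Lrrc6, an assembly factor, at 212.7 ± 53.62 with a ratio of 21.01. Drc7, of the nexin-dynein regulatory complex, went the other way against choroid plexus, at 113.7 ± 58.9 CPM in ependymal and 369.8 in choroid plexus nuclei. Pih1d3 had no UMI, whereas Pih1h3b, a leading gene outside the list, stood at 60.62 ± 45.95 CPM with a ratio of 749.6. Dnaaf2, at 2.535 ± 7.606 CPM, rested on 1 mouse. The 2 genes with the full X-box were lowly detected, Cfap298 at 20.17 ± 21.17 CPM (ratio 2.896) and Ccdc151 at 39.37 ± 25.56 (ratio 11.07).

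Radial spoke, central pair and other axoneme genes gave the most uniform list. Of 35 genes, 32 were higher in 9 of 9 mice, 30 had a ratio over 10, and the median ratio was 68.92. Their sum was 16920 ± 3718 CPM against 457.4 in the other nuclei and 5238 in choroid plexus, and 21770 ± 2347 without the mixed nuclei. Spag16, of the central pair, stood at 2153 ± 502.8 CPM and had a UMI in 98.8% of ependymal nuclei and 1% of oligodendrocytes. It was at 2396, 2444, 1562 and 1228 CPM in NP mice, 1908 and 2337 in control RE mice and 2368, 2261 and 2876 in stress RE mice. NP mice thus held both low values, and their high values lay among those of the stress RE mice.

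Cfap299, a cilia-associated protein, stood at 2369 ± 385.5 CPM with a ratio of 283.2. Hydin, a giant central pair protein whose loss in mice causes hydrocephalus, stood at 796.6 ± 210.9 CPM with a ratio of 378.4. Here too choroid plexus nuclei shared only some of the genes. They held 1498 CPM of Spag16 but 75.68 of Hydin, 162.6 of Cfap299, 3.621 of Cfap46 and 1.796 of Spag17. Spag17 stood at 737.7 ± 194.2 CPM in ependymal nuclei and Cfap46 at 549.3 ± 197.6. Tekt2 was barely detected, at 3.372 ± 10.12 CPM, all from a single mouse, and Rsph3a and Rsph3b are close copies whose split is uncertain.

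**Figure D2:**
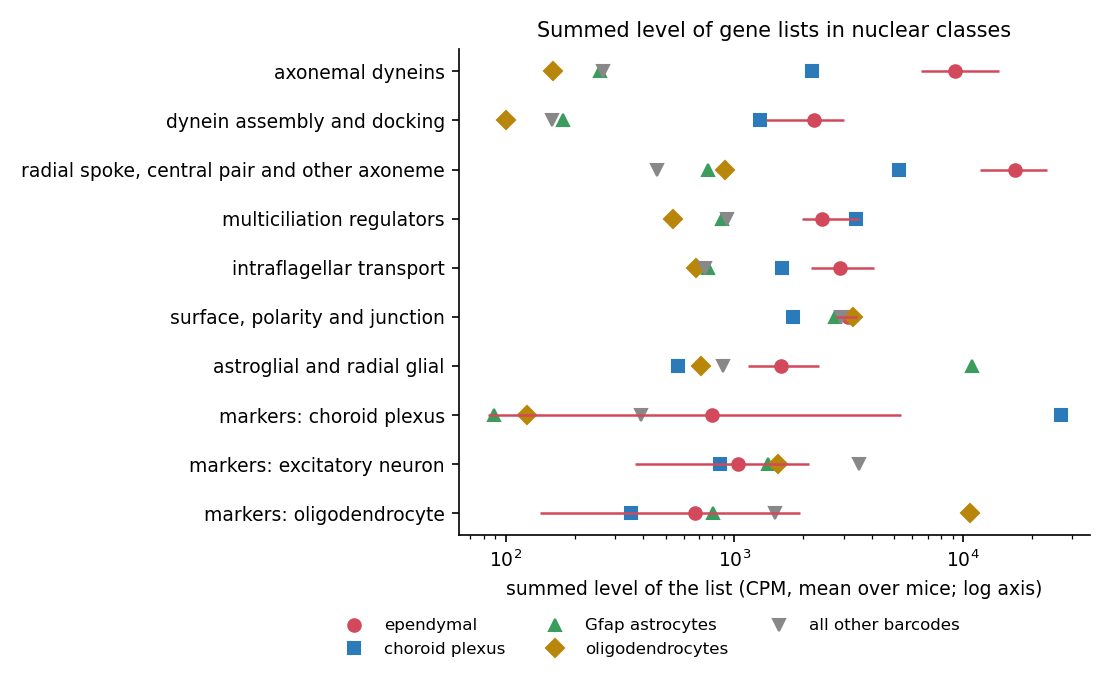
Summed levels in CPM of the gene lists are shown on a log x axis as means over mice, for ependymal nuclei (line, lowest to highest of 9 mice), other classes and all other barcodes. Ependymal nuclei are the highest for dyneins (9249 CPM, of which 1742 are of Dnah12, a gene they were chosen by) and for radial spoke and central pair genes (16920 CPM), with choroid plexus nuclei next (2182 and 5238 CPM), while the astroglial list is highest in Gfap astrocytes (10900 CPM), which were chosen by genes of that list.

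The regulators that start and hold the multiciliated programme were more mixed. Of 16 genes, 7 were higher and 2 lower in 9 of 9 mice, with a median ratio of 4.537, and the 2 lower genes, Ccno and Cdc20b, had no UMI in the 9 mice. The list summed to 2403 ± 477.4 CPM against 927.1 in the other nuclei, and to 2669 ± 455.2 without the mixed nuclei. Its sum was higher in choroid plexus nuclei, at 3405 CPM. Foxj1 (chr11:116330704-116335399, minus strand) stood at 73.07 ± 29.53 CPM, with a ratio of 61.75. It was at 45.64, 113.3, 47.63 and 57.29 CPM in NP mice, 97.49 and 30.35 in control RE mice and 69.83, 101.9 and 94.28 in stress RE mice, so the groups overlapped. Rfx2 stood at 203.3 ± 61.4 CPM with a ratio of 33.19. Rfx3, the other RFX gene of the list, was broadly expressed, at 1196 ± 206.7 CPM in ependymal nuclei, 750.5 in the other nuclei and 1296 in choroid plexus. Trp73, which encodes p73, stood at 102.7 ± 32.92 CPM (ratio 26.55), and Myb, which acts early in multiciliation, at 85.8 ± 61.28 (ratio 93.11).

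Ulk4, a pseudokinase whose loss disturbs ependymal cilia, stood at 424.9 ± 75.45 CPM with a ratio of 4.394. Other genes of the list act while a cell is making its basal bodies. Mcidas, a geminin-family coactivator, stood at 1.686 ± 5.059 CPM, all from a single mouse, and Ccno and Cdc20b were undetected, as given above. Deup1, of the deuterosome on which basal bodies form, stood at 26.81 ± 20.29 CPM with a ratio of 27.24. Plk4, a kinase of centriole duplication, was at 2.535 ± 7.606, all from a single mouse.

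Gmnc, another geminin-family coactivator, turned on 1 mixed nucleus. Its mean of 165 ± 319.2 CPM fell to 68.59 without the mixed nuclei. Stress RE mouse 90 was at 1014 CPM with and at 0 without its single mixed nucleus, and its choroid plexus markers summed to 5374 CPM with and 157 without that nucleus. Choroid plexus nuclei held 1623 CPM of Gmnc. The other 8 mice lay between 22.82 and 97.49 CPM.

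Intraflagellar transport genes, which primary cilia need as well, rose above the other nuclei by less. Of 22 genes, 10 were higher in 9 of 9 mice and the median ratio was 3.543, with a sum of 2905 ± 640.9 CPM against 746.5 (3565 ± 523.4 without the mixed nuclei). Ift88, an anterograde subunit, stood at 324 ± 62.83 CPM with a ratio of 6.124, and Ift81 at 285.3 ± 87.53 with a ratio of 6.45. Ttc26, which carries the full X-box shown above, stood at 91.16 ± 41.79 CPM with a ratio of 3.358. Ttc21a was the member with the largest ratio, 284.9, at 302.2 ± 141.4 CPM, whereas its paralogue Ttc21b was at 48.67 ± 38.55 with a ratio of 0.9221. Ttc21a was at 616.1, 404.6, 323.9 and 196.4 CPM in NP mice, 167.1 and 212.5 in control RE mice and 304.7, 305.6 and 188.6 in stress RE mice. NP mice held the 3 highest values, and the groups overlapped below them.

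Genes of the cell surface, planar polarity and junctions gave a median ratio of 3.9 over 21 genes, 9 of them higher and 2 lower in 9 of 9 mice. The cadherin-related genes Cdhr3 and Cdhr4 had the largest ratios with Cd24a, at 130, 482.7 and 115.9. Their levels were 459 ± 149.2, 195.6 ± 118 and 57.15 ± 34.32 CPM. Cd24a encodes a surface antigen by which ependymal cells are sorted. Celsr1, of the planar polarity system that aligns cilia, stood at 89.8 ± 54.99 CPM (ratio 35.61) and Fzd3 at 174.1 ± 31.21 (ratio 3.9), while Celsr3 and Ank3 were lower than in the other nuclei, with ratios of 0.2772 and 0.3971 (0.247 for Ank3 without the mixed nuclei). Aqp4, the water channel of astroglia, stood at 160.2 ± 51.32 CPM, above the 16.37 of the other nuclei and below the 524.4 of Gfap astrocytes.

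Ependymal cells descend from radial glia. Of 18 astroglial and radial glial genes, 4 (Sox9, Vim, Gli3 and Pla2g7) were higher in 9 of 9 mice, with a median ratio of 3.787. Sox9 stood at 95.6 ± 42.26 CPM (ratio 18), Vim, which encodes vimentin, at 91.02 ± 41.55 (ratio 47.43) and Nes, which encodes nestin, at 28.7 ± 23.32 (ratio 69.77). The sum of the list was 1595 ± 457.7 CPM, well short of the 10900 of Gfap astrocytes. Gfap itself was at 37.25 ± 35.18 CPM against 474.3 in Gfap astrocytes, and the glutamate transporter Slc1a2 was at 357 ± 214.9 against 6569, below the 519.4 of all other nuclei.

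Receptors for the hormones of pregnancy, lactation and stress, and for dopamine, were read as a list because of the study's groups. Of 22 genes, 0 were higher and 5 lower than in the other nuclei in 9 of 9 mice, with a median ratio of 0.5427, and the 5 lower genes had no UMI in the 9 mice. Oxtr, Avpr1a, Drd4 and Drd5 had no UMI in 166 nuclei, which allows a share of nuclei with a UMI of up to 1.81%. Drd1 and Drd2, the main dopamine receptors, were at 3.025 ± 6.588 and 2.391 ± 5.234 CPM with a UMI in 1.205% of nuclei each, a share read as background since 0.8667% of oligodendrocytes had a UMI of each. Esr1 was at 15.42 ± 24.43 CPM, Nr3c1 (the glucocorticoid receptor) at 113.6 ± 58.63 and Nr3c2 (the mineralocorticoid receptor) at 563 ± 232, the last against 932.3 in the other nuclei.

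Prlr, the prolactin receptor, stood at 26.89 ± 78.33 CPM, of which nearly all came from stress RE mouse 90. It was at 235.7 CPM in that mouse, at 6.348 in stress RE mouse 75 and at 0 in the other 7. Without the mixed nuclei it was at 0 in mouse 90 and the mean was 1.223 CPM, while choroid plexus nuclei held 829.3. Htr2c, a serotonin receptor and choroid plexus marker, moved in the same way in mouse 90, from 3630 to 31.41 CPM.

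Among 15 glucocorticoid-responsive genes, 2 were higher and 4 lower in 9 of 9 mice. The metallothioneins Mt1 and Mt2 were the higher genes, at 216.2 ± 128.8 and 51.32 ± 29.62 CPM with ratios of 9.712 and 10.16. Fkbp5, Sgk1 and Zbtb16 were lower, with ratios of 0.2579, 0.2952 and 0.1946 (0.1629, 0.177 and 0.08346 without the mixed nuclei), and Arl4d had no UMI. Of 16 immediate early genes, 0 were higher and 2 lower (Fosb and Egr2, with no UMI) in 9 of 9 mice, and Fos was at 0.7053 ± 2.116 CPM, all from a single mouse. Of 16 interferon and antigen presentation genes, 0 were higher or lower in 9 of 9 mice, while 11 had a ratio over 2 and the median ratio was 2.759. Over all 28818 genes, 5188 had a ratio over 2. They summed to 188.2 ± 130.6 CPM against 81.36 in the other nuclei. Nlrc5, at 42.7 ± 38.15 CPM (ratio 28.78), was the most elevated of those over 10 CPM.

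Of the 9 lists of markers of other cell types, with the mixed nuclei included, 4 summed to less in ependymal nuclei than in the remaining nuclei and 5 to more. Excitatory neuron markers summed to 1040 ± 647.2 CPM against 3508, and to 428.6 ± 143.3 without the mixed nuclei. Oligodendrocyte markers summed to 675.4 ± 590.6 CPM against 1501, and to 311.3 ± 139.8 without the mixed nuclei. GABAergic neuron markers, of which Gad1 and Gad2 were limited by the rule, summed to 251.3 ± 113.1 CPM against 266, but to 278 ± 113.8 without the mixed nuclei, which is above the other nuclei. Rarb alone held most of that sum, at 136.1 ± 60.59 CPM in NP and 262.2 ± 60.06 in stress RE mice with all nuclei. Of the 9 genes of the list, 0 were higher and 3 lower in 9 of 9 mice, with a median ratio of 0.4072. Neuroblast markers summed to 76.34 ± 90.86 CPM against 103.8, and to 45.2 ± 24.08 without the mixed nuclei.

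The choroid plexus list was among those that summed to more, at 801 ± 1718 CPM against 388.7. It ranged from 83.56 CPM in control RE mouse 72 to 5374 in stress RE mouse 90, and without the mixed nuclei it was at 241.9 ± 111.1, below the other nuclei. Tanycyte markers, of the other ependymal lineage of the third ventricle, summed to 160.1 ± 80.43 CPM against 46.61, with Scn7a at 77.6 and Col23a1 at 62.38 CPM and 2 of 10 genes, Rax and Gpr50, at no UMI. Oligodendrocyte precursor markers summed to 533.2 ± 158 CPM against 367.5, of which Ptprz1, a receptor phosphatase of glia, held 503.3, while Pdgfra was at 1.798 and Olig2 at 0. Microglial markers summed to 236.2 ± 48.12 CPM against 161. Cx3cr1, the fractalkine receptor, was at 117.4 CPM against 24.24 there, while Csf1r was at 0.7053 and Tmem119 at 0 in the 9 mice. Vascular and meningeal markers summed to 45.34 ± 26.44 CPM against 38.62. In the precursor and microglial lists a single gene thus carried the excess, while their other members named here were at or near 0.

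The ependymal nuclei were not uniform. Grouped on genes other than those of the rule, they fell into 6 sub-clusters, which are described by their leading genes because the same counts made them. Sub-cluster 1 (44 nuclei from 10 mice, 0 mixed) was led by Malrd1, Wdr95, Cdh26, Endog and Zic4, and also by the Wnt-pathway genes Wls and Rspo3 and by Reln. Wls was at 959.8 CPM there and 164.5 in the other ependymal nuclei, and Zic4 at 243.2 and 34.64. Sub-cluster 2 (49 nuclei from 13 mice, 2 mixed) was led by Eif2ak2, Sox1ot, Ddx60 and Rnf213, of which Eif2ak2, Ddx60 and Rnf213 are known as interferon-responsive genes, and by Gmnc. Each of these 5 had a UMI in 8 to 13 of its 49 nuclei. Gmnc was at 281.6 CPM there and 43.5 in the other ependymal nuclei, but at 82.41 and 73.2 without the mixed nuclei. Eif2ak2, Ddx60 and Rnf213 were at 126.2, 131.1 and 199.1 CPM there, and without the mixed nuclei at 71.43, 43.95 and 71.43, against 9.547, 12.73 and 31.82 elsewhere.

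Sub-cluster 3 (13 nuclei, 2 mixed) was led by Pfdn5, Dbi, Ttr, S100a6, Cuta and Mt3. Dbi, the diazepam binding inhibitor, was at 2615 CPM against 208.1 in the other ependymal nuclei. Ttr, which encodes transthyretin and marks choroid plexus, was at 801 CPM against 70.84, and at 127.1 against 70.27 without the mixed nuclei. The choroid plexus list had its highest median of the 6 sub-clusters here, 3.377 per 10000 UMIs.

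Sub-cluster 5 (31 nuclei) was led by Nox4, Gm1715, Rell1 and Samd4 and came from 4 mice, with 23 nuclei from stress RE mouse 75 alone, so it cannot be told apart from that library. The remaining pair were mixed. Sub-cluster 4 (19 nuclei, 17 mixed) had a median of 14240 UMIs and an axoneme sum of 55.77 per 10000 and was led by neuronal genes such as Cacng2, Gabbr2 and Rbfox3. Sub-cluster 6 (10 nuclei, all 10 mixed) was led by St18, Mobp and Mbp, which are genes of oligodendrocytes. The axoneme sums of sub-clusters 1, 2, 3 and 5 had medians of 373.4, 342.4, 293.6 and 379.6 per 10000.

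Genes that mark brain regions were seen in different numbers of nuclei in sub-clusters 1 and 2. Meis2, a homeobox factor, had a UMI in 3 of 44 nuclei of sub-cluster 1 and in 31 of 49 of sub-cluster 2, at medians of 3305 and 3313 UMIs. Zic4, a zinc-finger factor of the dorsal midline, went the other way, with 20 of 44 and 7 of 49 nuclei. Rspo3, a secreted Wnt agonist, had a UMI in 17 of 44 and in 2 of 49. Barhl2 had a UMI in 5 of 44 and 0 of 49.

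Sub-cluster 1 held 26 of the 58 NP nuclei, 9 of the 41 control RE nuclei and 9 of the 67 stress RE nuclei. By mouse it held 80%, 21.43%, 57.14% and 41.18% of the ependymal nuclei of NP mice 27, 35, 37 and 73, 13.33% in each of control RE mice 72 and 87, 62.5% in control RE mouse 88, and 10%, 25% and 0% in stress RE mice 75, 77 and 90. Of the mice with fewer than 5 ependymal nuclei, it held 50% (2 of 4) in stress RE mouse 43 and 0% in NP mouse 63, control RE mouse 66 and stress RE mouse 70. The range of NP mice overlapped with those of both other groups. These shares have no test, since the sub-clusters were drawn from the same counts.

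**Figure D3:**
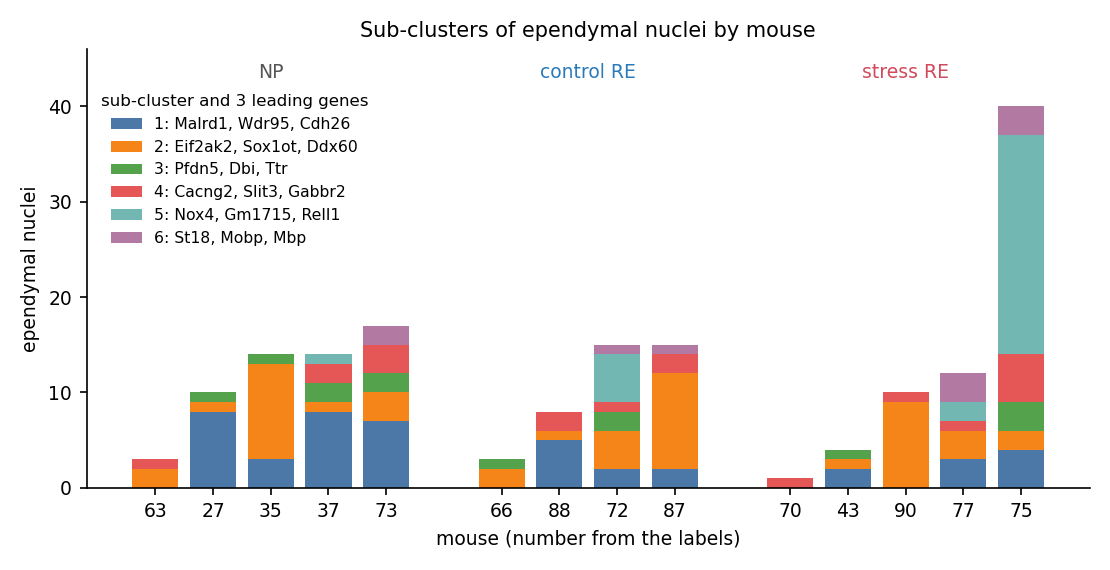
Each bar is 1 of the 14 mice with an ependymal nucleus, its height the number of nuclei, split by the number of nuclei in each of the 6 sub-clusters. Stress RE mouse 75 holds 23 of the 31 nuclei of sub-cluster 5. By mouse, sub-cluster 1 holds 0% to 80% of the nuclei in NP, 0% to 62.5% in control RE and 0% to 50% in stress RE. These ranges overlap and have no test.

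The share of ependymal nuclei varied more between mice than between groups. NP mice 27, 35, 37, 63 and 73 had 10, 14, 14, 3 and 17 ependymal nuclei, or 0.1602%, 0.1549%, 0.1787%, 0.03489% and 0.2181% of their barcodes with at least 500 genes. NP mouse 31 had 0 of 6718, which allows a share of up to 0.04466% by a limit of 3 counts and up to 0.05715% by the 95% Wilson interval. Control RE mice 66, 72, 87 and 88 had 3, 15, 15 and 8 (0.02968%, 0.1421%, 0.13% and 0.07632%). Stress RE mice 43, 70, 75, 77 and 90 had 4, 1, 40, 12 and 10 (0.04897%, 0.01742%, 0.3153%, 0.1435% and 0.1067%). Each group held mice at the low and at the middle of the range, and the 40 nuclei of stress RE mouse 75 were 24.1% of all. Counting error alone was wide, with 95% Wilson intervals of 0.2317% to 0.429% for mouse 75 and 0.08702% to 0.2946% for mouse 27, and it covers neither dissection nor nuclei isolation.

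Mean shares were 0.1245% ± 0.08652 in NP (SD, n = 6), 0.09453% ± 0.05184 in control RE (n = 4) and 0.1264% ± 0.1164 in stress RE (n = 5). Control RE minus NP gave a difference in mean share of -0.02992 points (exact permutation test, two-sided, p = 0.5476, smallest possible p = 0.004762). Stress RE minus control RE gave 0.03185 points (exact permutation p = 0.7302), and stress RE minus NP 0.001933 points (exact permutation p = 0.9805). After Benjamini-Hochberg adjustment over the 3 comparisons each p was 0.9805. All 3 differences were smaller than the SD of either group compared, and a p that misses the threshold does not show that the shares were alike.

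Batches 2 and 3 of the labels gave opposite directions for control RE minus NP and for stress RE minus NP, and the same direction for stress RE minus control RE. Within batch 2 the differences of control RE minus NP, stress RE minus control RE and stress RE minus NP were 0.01434, 0.0159 and 0.03025 points. Within batch 3 they were -0.1186, 0.1023 and -0.01628 points. Batch 1 held 3 mice and no control RE mouse. Without mouse 75, stress RE minus control RE became -0.01538 and stress RE minus NP became -0.0453 points. Fewer ependymal cells in a punch and fewer of their nuclei recovered cannot be told apart.

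**Figure D4:**
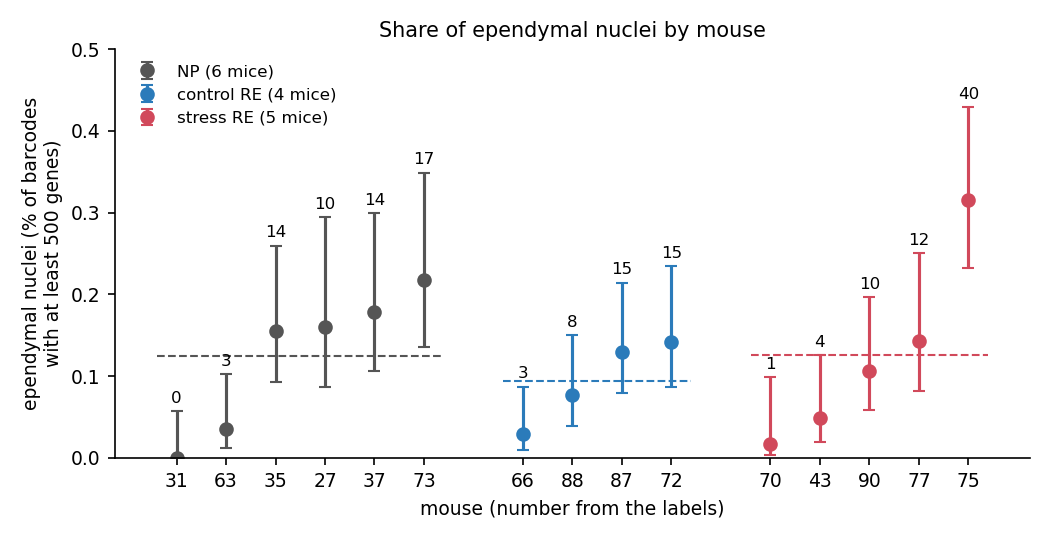
Each point is the share of ependymal nuclei of 1 mouse, in percent of barcodes with at least 500 genes, with its 95% Wilson interval and its number of nuclei above, and dashed lines give the group means. The 3 groups overlap throughout, from 0% in NP mouse 31 to 0.3153% in stress RE mouse 75.

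Whether the ependymal share moved with that of tissue around the ventricle was read over the 15 mice, for 5 other classes defined by markers. All shares of a library have the same denominator. The choroid plexus share gave Pearson's r = 0.4806 (permutation p = 0.06954, adjusted p = 0.2468) and Spearman's rho = 0.5429 (permutation p = 0.03838, adjusted p = 0.176). Without mice 35 and 73, farthest from the median, r was 0.4407, and it was 0.7774 within batch 2 (n = 6, exact permutation p = 0.05417) and 0.2531 within batch 3 (n = 6, exact permutation p = 0.625). Pearson's r for Dlx neuroblasts, other astrocytes, Gfap astrocytes and oligodendrocytes was 0.3968, 0.3941, 0.2982 and 0.2756, with adjusted permutation p from 0.2468 to 0.3199. None of the 5 passed adjustment, and for Gfap astrocytes r changed sign, to -0.02309, without mice 37 and 73.

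Differences in expression between the groups were tested on UMIs summed per mouse. Of the stress RE and NP groups, 3 and 4 mice had at least 10 ependymal nuclei, but only 2 control RE mice did, so the fit planned with that minimum gave stress RE minus NP alone. In that fit 2101 genes were tested with edgeR's quasi-likelihood test and 0 were called at a Benjamini-Hochberg adjusted p under 0.05 (0% called), with 87 at an unadjusted p under 0.05. DESeq2 on the same counts called 2 genes, Tafa1 and Enpp2, with 64 at an unadjusted p under 0.05. A further fit, added after the counts of nuclei were seen, took mice with at least 5 ependymal nuclei and so brought in control RE mouse 88. Of 1751 genes edgeR called 0 in control RE minus NP (0% called, 50 at an unadjusted p under 0.05), 0 in stress RE minus control RE (0% called, 112) and 0 in stress RE minus NP (0% called, 63). DESeq2 called 0, 0 and 2 there. The 3 comparisons share mice and are not independent, and a count of 0 called does not show that expression was alike.

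The genes with the smallest p-values are therefore given as values. They were picked from all genes tested by these same levels. Groups that lie apart are to be looked for among such genes and add no support for a difference. Tafa1, which encodes a secreted neuropeptide-like protein, led stress RE minus NP. It was at 387.9, 453.2, 1924 and 1023 CPM in NP mice, 250.7 and 349 in control RE mice and 95.22, 101.9 and 282.8 in stress RE mice. All NP values lay above all stress RE values, but the highest were those of mice 37 and 73, with 2 and 5 mixed nuclei. The log2 difference was -2.77 ± 0.61 (SE) with an edgeR adjusted p of 0.5701 and a DESeq2 adjusted p of 0.02211. Without the mixed nuclei, mice 37 and 73 were at 165.6 and 270.7 CPM, the groups overlapped, and the log2 difference was -1.12 (edgeR adjusted p = 0.9978).

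Enpp2, which encodes autotaxin and is abundant in choroid plexus, went the other way. It was at 136.9, 64.74, 57.16 and 73.65 CPM in NP mice, 125.3 and 166.9 in control RE mice and 196.8, 122.2 and 2121 in stress RE mice. The outlying value was that of mouse 90, which without its mixed nucleus was at 31.41 CPM. The log2 difference was 3.21 ± 0.77 (SE) with an edgeR adjusted p of 0.5701 and a DESeq2 adjusted p of 0.03736, and without the mixed nuclei the gene no longer passed the filter on low counts.

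Unc5cl, a leading ependymal gene, was at 387.9, 679.7, 276.3 and 163.7 CPM in NP mice, 473.5 and 1093 in control RE mice and 761.7, 977.9 and 1037 in stress RE mice. All 3 stress RE mice lay above all 4 NP mice, and the control RE mice were spread across both. The log2 difference of stress RE minus NP was 1.31 ± 0.43 (SE) with an edgeR adjusted p of 0.9543, so it did not pass. Without the mixed nuclei the levels were 387.9, 764.4, 496.9 and 342.9 CPM in NP mice and 1045, 1072 and 1288 in stress RE mice, the log2 difference was 1.18 and the edgeR adjusted p was 0.8135. Sdk2, which encodes the adhesion molecule sidekick, and Bace2, a protease, had log2 differences of 1.44 and 1.30. Sdk2 was at 49.1 to 91.28 CPM in NP mice and at 122.2 to 235.7 in stress RE mice, and Bace2 at 45.64 to 210.4 and at 222.2 to 282.8. Their groups still did not overlap without the mixed nuclei.

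Zfp292, Nsf, Gm49678, Clstn2 and Epha6, the rest of the 10 genes with the smallest p, were lower in stress RE by values, with edgeR adjusted p of 0.5701 for Gm49678 and 0.9543 for the others. For Zfp292 and Nsf the log2 differences were -1.28 and -1.30, and -1.08 and -1.66 without the mixed nuclei, with no overlap between the groups either way. Epha6 went from -1.42 to -0.61 without the mixed nuclei, and its groups overlapped either way. Gm49678 and Clstn2 then no longer passed the filter on low counts. Gm49678 was at 0 to 91.28 CPM in NP and 11 to 31.41 in stress RE mice without the mixed nuclei, and Clstn2 at 73.62 to 228.2 and 31.41 to 74.82, so both overlapped.

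**Figure D5:**
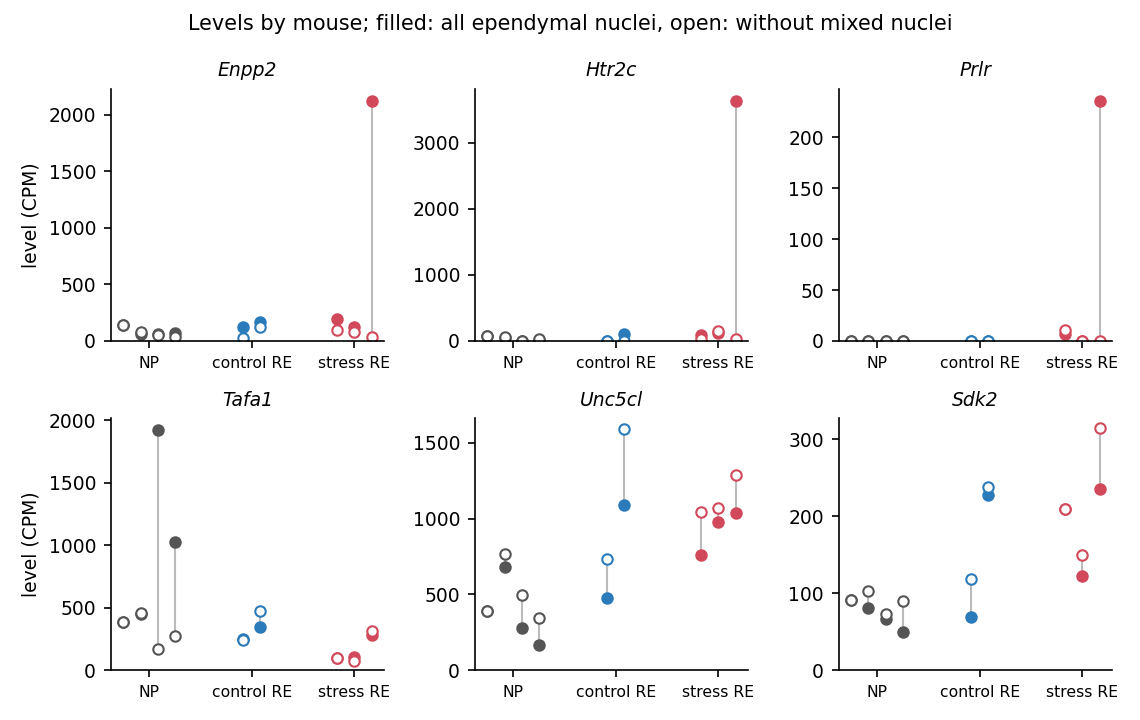
Levels in CPM of Enpp2, Htr2c, Prlr, Tafa1, Unc5cl and Sdk2 are shown by mouse and group, filled for all ependymal nuclei and open without the mixed nuclei. Enpp2 in stress RE mouse 90 is at 2121 CPM filled and 31.41 open, while for Unc5cl the 3 stress RE mice stay above the 4 NP mice either way. Enpp2, Tafa1, Unc5cl and Sdk2 were picked by their small p from these levels, so groups that lie apart add no support.

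In control RE minus NP the smallest p was that of Dapk1, a death-associated kinase, at 342.6 ± 112.5 CPM in control RE and 139.9 ± 45.22 in NP mice, a log2 difference of 1.25 ± 0.36 (SE) with an edgeR adjusted p of 0.9999. Galntl6 had a log2 difference of 2.42 that rested on control RE mouse 88, at 2379 CPM with and 482.7 without its mixed nuclei. The mitochondrial transcripts mt-Cytb and mt-Co3 were at 286.2 ± 121 and 528.4 ± 155.4 CPM in control RE and at 802.2 ± 395.2 and 1305 ± 617.3 in NP mice, with edgeR adjusted p of 0.9999.

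In stress RE minus control RE the 10 genes with the smallest p were mostly lower in stress RE, with an edgeR adjusted p of 0.6941 for each. Prkag2, a regulatory subunit of AMP-activated kinase, was at 62.08 ± 39.01 CPM in stress RE and 297.6 ± 135 in control RE mice. It was at 99.03, 49.88 and 31.41 CPM in stress RE mice without the mixed nuclei, and at 213.8, 142.5 and 144.8 in control RE mice, still apart. Gpc5, a glypican, was at 59.23 ± 91.81 and 578.1 ± 70.47 CPM with all nuclei. Once the mixed nuclei were left out, Gpc5 was at 22.01, 0 and 219.8 CPM in stress RE mice and 71.25, 902.5 and 193.1 in control RE mice, and the groups overlapped. Neither gene passed the filter on low counts without them. Lsamp, Kcnd2 and Kalrn, which neurons express at high levels, had log2 differences of -1.69, -1.74 and -2.19, which were -0.47, -1.11 and -1.09 without the mixed nuclei. Excitatory neuron markers moved in the same direction in this comparison, with a median log2 difference of -1.43 over 3 of 8 markers tested and 0 called. Over those still tested without the mixed nuclei it was -0.68, which is the value of Grin2b. Ttc8, of the BBSome that sorts ciliary cargo, and Stard13 were higher in stress RE by values, at 261.5 ± 2.97 against 110.5 ± 26.52 CPM and at 619.2 ± 411 against 210 ± 50.52. The groups overlapped for both without the mixed nuclei, with log2 differences of 1.09 for Ttc8 and 0.97 for Stard13.

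By list, 0 genes were called in any comparison, where the background was 0% as well. In stress RE minus NP, 17 of 21 dyneins were tested (Dnah12 of the rule is in the list), 13 of them with a positive difference and a median log2 difference of 0.15, against -0.02 over all genes tested. Radial spoke and central pair genes gave a median of 0.13 over 23 tested, and intraflagellar transport genes 0.09 over 9. Without the mixed nuclei these medians were 0.04, 0.01 and -0.09. Markers of other cell types had larger differences in this comparison, with 0 called and a median of -0.95 over 4 excitatory neuron markers and 1.41 over 2 oligodendrocyte markers, and of -0.76 and 0.23 without the mixed nuclei. In control RE minus NP the medians of dyneins, radial spoke and central pair genes and intraflagellar transport genes were -0.27, -0.20 and -0.30 over 15, 22 and 8 genes tested, and -0.08, -0.09 and -0.24 without the mixed nuclei. The medians of 3 excitatory neuron and 2 oligodendrocyte markers were 0.70 and 0.42 there, of the opposite sign, and -0.11 and -0.62 over those still tested without the mixed nuclei.

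In stress RE minus control RE the same medians were 0.40, 0.35 and 0.29, and 0.04, 0.11 and 0.13 without the mixed nuclei. The 2 oligodendrocyte markers had a median of 0.96, and it was 0.83 over those still tested without the mixed nuclei. Dynein and radial spoke medians were nearer to 0 in each of the 3 comparisons without the mixed nuclei, and the intraflagellar transport median in all but stress RE minus NP. Hormone and dopamine receptors had 6 of 22 genes tested in each comparison, with medians of 0.34 in stress RE minus NP, 0.49 in control RE minus NP and 0.11 in stress RE minus control RE. These receptor medians were 0.33, 0.41 and -0.25 without the mixed nuclei, so the last changed sign. No immediate early or interferon gene was expressed highly enough to be tested.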

How the data were processed

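Single nuclei of dHF punches from 15 mice were sequenced by 10x Genomics 3′ chemistry. The authors aligned reads to mm10 with Cell Ranger 7.1.0 (per the labels) and deposited raw UMI counts per gene and barcode (32285 genes). Their removal of background RNA, doublets and cell clusters is not part of the deposited counts. Intervals cover counting error only.

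The members, gene lists and tests were chosen with earlier results of these data known. Genes named were those of the lists, the 30 with the largest ratio of member to other CPM among genes of at least 50 CPM, and the 10 with the smallest p per comparison. Leading genes of the sub-clusters and genes called in an alternative were named as well. UMIs were summed per mouse and tested with edgeR 4.0.16 (R 4.3.3, filterByExpr, TMM, all groups in 1 fit, Benjamini-Hochberg adjustment), or DESeq2 1.42.0 as an alternative. Sub-clusters were drawn with scanpy 1.11.5 (Leiden, resolution 0.5, 10 principal components). Doublets were kept, and Scrublet scores were used in an alternative only (top 0.8% per 1000 barcodes). Other classes were set by marker UMIs (choroid plexus by Ttr with other epithelial markers, astrocytes by Slc1a3 and Aqp4 with or without Gfap, oligodendrocytes by oligodendrocyte markers). The class of mixed nuclei, the fit with at least 5 nuclei per mouse and the short X-box core were chosen after seeing the data. Shares were compared over mice by exact permutation (scipy 1.17.1). Each mouse is a separate animal, and no mouse was left out of the shares. The edgeR script was tested on simulated counts, where it found 10% to 11% of genes changed by a log2 of 1. Of genes changed by a log2 of 2 it found 71% to 76%. Most changes of a log2 of 1 would thus be missed. Alternatives are given in the closing section.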

Additional observations from a re-analysis of the deposited data

Results flagged for a closer look

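Among 93 sets of 4 to 6 values examined, each from the mice of a single group, 5 held a mouse far from the rest by Dixon's criterion. For a single set chance gives about 1 in 20. Nearly all sets were levels in the same 4 NP mice, so they are not independent. Some of the genes had been picked by p-values from these levels, so that rate is a rough guide only. Genes of the selection rule were not examined. Levels were examined in NP alone, the only group with 4 mice of at least 10 ependymal nuclei, and the design thus placed all 5 there. NP mouse 27, the only mouse of the 9 with no mixed nucleus, accounted for 3 of them, and all 3 were lost when the mixed nuclei of the other mice were left out. Its glucocorticoid-responsive list summed to 479.2 CPM, with the others at 712.1 to 752.6, and at 785.1 to 1067 without their mixed nuclei. Its levels of Galntl6 and of Wrn, a RecQ helicase, were each 410.7 CPM, with the others at 113.3 to 130.9 and 226.6 to 257.2. The others were at 73.62 to 180.5 CPM of Galntl6 and at 289.2 to 441.7 of Wrn without the mixed nuclei, so mouse 27 was no longer the highest for Wrn. In NP mouse 73 oligodendrocyte markers summed to 875.7 CPM, with the others at 190.5 to 242.8, and 288.8 CPM remained in that mouse without its 5 mixed nuclei, among others at 205.4 to 331.3. Gm47719, a leading ependymal gene without a known role, was at 145.7 CPM in NP mouse 35 and at 8.184 to 22.82 in the others, and at 165.3 and 0 to 22.82 CPM without the mixed nuclei, where it still met the criterion.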

How the results depend on the processing

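The differences in share are within the spread between mice, and their sign is not settled. Control RE minus NP became 0.03354 on the scale of log2(share + 0.01). Stress RE minus NP became -0.003208 points with at least 2 and -0.02876 with at least 5 Dnah12 UMIs, -0.006229 with no Tmem212 minimum, -0.001118 without doublets and -0.007193 without the mixed nuclei. The other 21 alternatives kept the direction, and no difference passed the threshold in any. Leaving out each mouse in turn gave -0.05481 to -0.0083 points for control RE minus NP, -0.01538 (without mouse 75) to 0.05909 for stress RE minus control RE, and -0.0453 (without mouse 75) to 0.02917 for stress RE minus NP, the last also negative without mice 31, 63 and 77. The correlation with Gfap astrocytes became -0.02309 without the farthest mice and -0.03125 within batch 3.

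The count of 0 called genes became 2 by DESeq2 in stress RE minus NP in both fits. With no filter on low counts it became 13 in stress RE minus NP in both fits, 3 in control RE minus NP and 25 in stress RE minus control RE, Htr2c, at 3630 CPM in mouse 90 with its mixed nucleus, leading all but the comparison without stress RE mice. List genes called were then 2 in stress RE minus NP in both fits (Gmnc and Htr2c) and 3 in stress RE minus control RE (Grin2b, Ttr and Htr2c). With at least 5 Dnah12 UMIs, 2 genes were called in stress RE minus control RE (Gpc5 and Lrrtm4). Leaving out each mouse gave 0 to 0 calls, except 0 to 1 in control RE minus NP (Egfem1, without mouse 73), and 0 to 0 among list genes. RLE size factors, a batch term, the doublet filter and the removal of mixed nuclei left 0 called. The cause of these changes was not tested. Without the mixed nuclei summed levels became 11870 CPM for dyneins, 2788 for assembly and docking, 21770 for radial spoke and central pair genes, 3565 for intraflagellar transport and 10560 for ependymal markers. No fit was possible with at least 20 nuclei per mouse, or with at least 10 nuclei of at least 5 Dnah12 UMIs. No paired analysis was possible because the replicate numbers were given in accession order and pair no mice. With 166 nuclei at a median of 3510 UMIs, 3 of 16 regulators and 6 of 22 receptors passed the filter on low counts, so most of them were not tested.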

Other observations

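Wdr95 and Gm29478, leading genes of sub-cluster 1, had small p in stress RE minus NP. That sub-cluster was drawn from the same counts and held 26 of the 58 NP and 9 of the 67 stress RE nuclei. The lower levels of these genes in stress RE are therefore not a separate result. Other leading genes of sub-cluster 1, among them Malrd1, Cdh26, Zic4 and Wls, were not among the genes with the smallest p. Wdr95, named here after its values were seen, was at 171.8 ± 118.2 CPM in NP and 26.28 ± 22.8 in stress RE mice (log2 difference -2.36, edgeR adjusted p = 0.9543, and -2.36 without the mixed nuclei). Gm29478 was at 170.3 ± 120.7 and 16.32 ± 14.16 CPM (log2 difference -3.14, edgeR adjusted p = 0.9543). The groups did not overlap for Wdr95, but did for Gm29478, where NP mouse 35 was at 16.18 CPM, below stress RE mice 75 and 90 at 25.39 and 23.57. Neither passed the threshold.

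Genes that mark brain regions, most of them transcription factors with the Wnt-pathway genes Wnt8b, Rspo2 and Rspo3, summed to 993.2 ± 164.8 CPM in ependymal nuclei against 518.5 in the other nuclei. Of 29, 16 had a ratio over 2 and the median ratio was 2.364, against 5188 and 0.5848 over all 28818 genes. In 9 of 9 mice 1 was higher and 3 were lower than in the other nuclei. The lower genes had no UMI, and Pax6 was the higher gene, at 35.53 ± 24.76 CPM against 5.188. Meis2 and Tcf7l2 held the largest parts, at 302.3 ± 172.3 CPM against 127.3 and at 199.6 ± 72.92 against 183.1, with a UMI in 70 and 79 of the 166 nuclei. Nkx2-1, Six6, Gbx2 and Irx1 had no UMI in the 9 mice, and Otx2, a factor of choroid plexus, stood at 42.16 ± 34.78 CPM against 292.9 in choroid plexus nuclei.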
